A study of Mus musculus with 2 samples.

Results

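The core cardiac transcription factors described here are 10 genes listed by symbol: Gata4, Gata6, Nkx2-5, Tbx5, Tbx20, Hand1, Hand2, Srf, Irx4 and Hey2. All 10 were matched by symbol among the 55536 annotated genes, and 9 of them had reads. Total RNA, reduced in ribosomal RNA and carrying ERCC spike-in RNAs, was sequenced from heart tissue of 2 female B6CASTF1/J mice aged 2 months. These are first-generation hybrids of C57BL/6 and CAST mice. The mice form 1 group with no treatment and no other genotype, each gave 1 library from 300 ng of RNA, and they are called animal 1 and animal 2 after their replicate numbers. The labels call them biological replicates but give both the same donor record. With 1 library per animal in 1 group, p-values between the libraries cover counting error only and compare 2 libraries, not conditions.

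These factors form a network that sets up and maintains the heart muscle programme. GATA4, GATA6, NKX2-5, TBX5, TBX20 and the HAND proteins bind DNA beside one another and act together at cardiac enhancers, and SRF binds CArG boxes in front of contractile genes. IRX4 and HEY2 are known as ventricular factors that keep atrial genes low in ventricles, while TBX5 is known for its part in atria and the conduction system.

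Of the 10 factors, 6 stood at 24.1 to 46.8 TPM in both hearts, 2 near 10 TPM, 1 near 1 TPM, and Hand1 had no read. TPM is a level corrected for transcript length and scaled to the library, so it allows genes to be compared with each other. Their levels summed to 209 TPM in animal 1 and 245 TPM in animal 2, or 227 ± 25.8 TPM (SD, n = 2). Gata4 at 41.7 ± 2.92 TPM (SD, n = 2) and Srf at 40.6 ± 8.65 TPM (SD, n = 2) had the highest means in the gene table, while in the second transcript table Nkx2-5, at 45.8 TPM, stood above Srf, at 42.9 TPM. Gata4 stood above 93.9% of nuclear protein-coding genes and Hey2 above 51.8%. In both animals and both tables the order had clear steps from Hand2 down to Irx4 and Tbx5, from these down to Hey2 and from Hey2 down to Hand1. Between Gata4 and Srf, Srf and Nkx2-5, Tbx20 and Nkx2-5, Tbx20 and Gata6, and Irx4 and Tbx5 the order changed with the animal or the table, and the ranges of Srf and Tbx20 and of Gata6 and Hand2 overlapped.

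**Figure D1:**
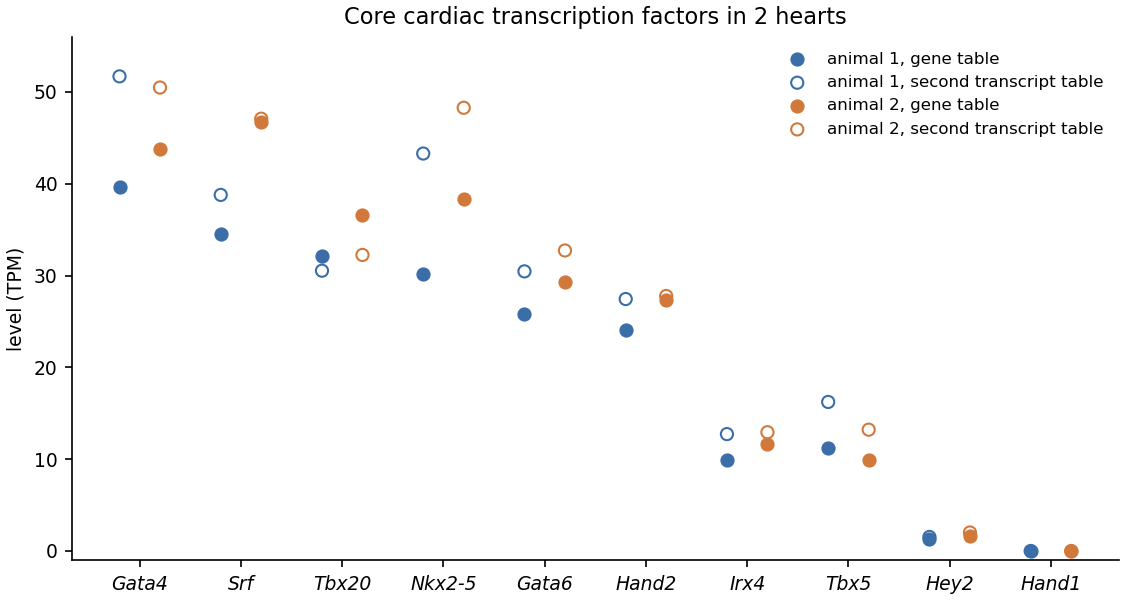
Level in TPM (linear axis) of each transcription factor in each animal, ordered by mean; filled points are the gene table and open points the second transcript table, an independent estimate from the same libraries. The points of Gata4, Srf, Tbx20 and Nkx2-5 intermix between 30.2 and 51.7 TPM, Irx4 and Tbx5 lie between 9.91 and 16.2 TPM, Hey2 is near 1 to 2 TPM and Hand1 is at 0.

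The gene reads numbered 41862417 in animal 1 and 41790009 in animal 2. The labelled tissue matched its markers, since all 5 cardiomyocyte and both ventricular markers lay above 300 TPM and all 5 atrial markers above 20 TPM in each animal. The lung, liver and skeletal muscle markers Sftpc, Alb and Myh4 had 0 to 10 reads each. Between the animals the deposited TPM of all tested genes had a median log2 ratio of 0.22, so ratios are given from reads scaled by TMM, whose median over all genes was -0.0024 on the log2 scale. A two-sided exact binomial test compared the libraries over 16133 genes with at least 20 reads in total, with Benjamini-Hochberg adjustment over all of them.

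No transcription factor differed between the animals by 2-fold. With the exact binomial test at an adjusted p below 0.05 and at least 2-fold, 0 of the 9 tested members were called, against a background of 1.3% of all genes, 210 of 16133, and 0 also with DESeq2 size factors. At an unadjusted exact p under 0.05 with no fold minimum there were 3 of 9, against 21.4% of all genes. With no fold minimum, 2 of 9 passed the adjusted threshold, against 11.1% of all genes: Tbx5 was lower in animal 2, where 4.65% of genes were called lower, and Srf was higher, where 6.5% were called higher. The median log2 ratio of the 9 members was 0.018. Under scaling by total gene reads, which shifts the median of all genes to 0.077, 5 of the 9 passed, against 3313 of 16133 genes. Of these factors Tbx5 was lower and Srf, Nkx2-5, Gata4 and Tbx20 were higher. That scaling also moved the split over all genes, from 1048 higher and 750 lower to 2943 higher and 370 lower with no fold minimum, and from 72 higher and 138 lower to 103 and 126 at 2-fold.

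**Figure D2:**
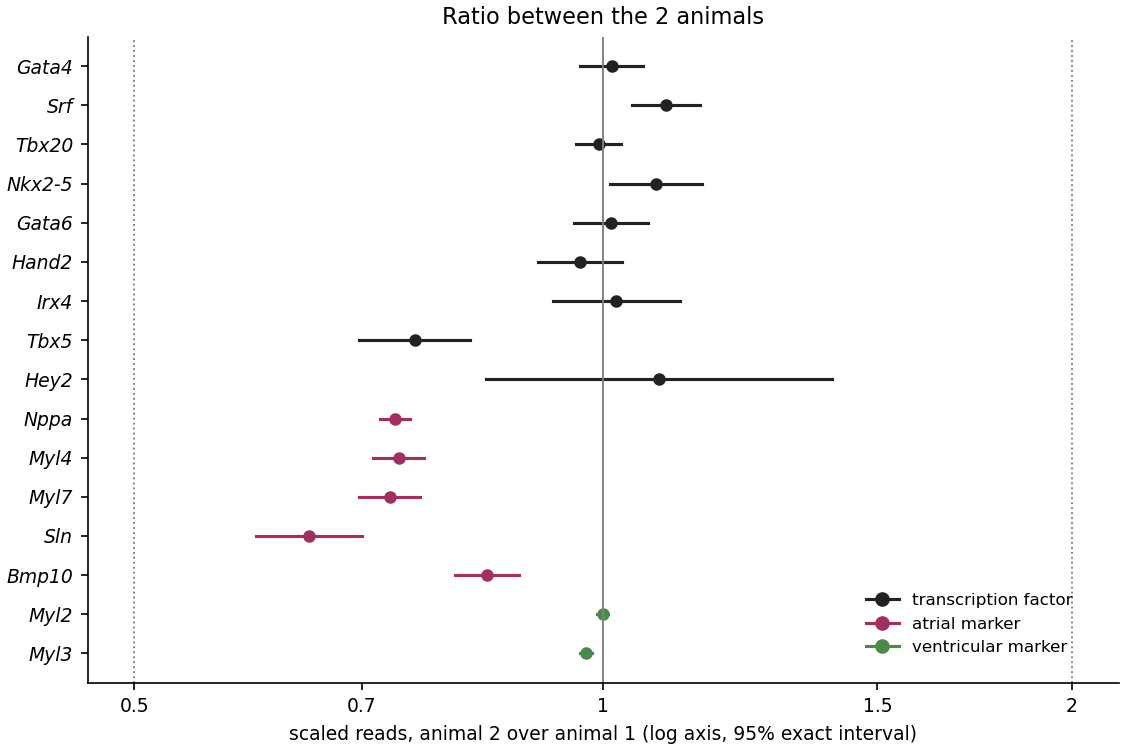
Ratio of TMM-scaled reads, animal 2 over animal 1, on a log axis with 95% exact intervals, for the 9 tested transcription factors (black), 5 atrial markers (purple) and 2 ventricular markers (green); dotted lines mark 2-fold. Tbx5, at 0.757, is the only black point whose interval lies below 1, and its interval overlaps those of Nppa, Myl4, Myl7, Sln and Bmp10, while Myl2 and Myl3 stand at 0.999 and 0.975.

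GATA4 and GATA6 are zinc finger factors that bind the GATA motif and open and activate cardiac enhancers. Gata4 lies on the minus strand of chromosome 14 (63198922 to 63271692, mm10) and had 39.6 TPM from 3531 reads in animal 1 and 43.8 TPM from 3771 reads in animal 2. The 2 hearts differed by a ratio of 1.01 (95% interval 0.967 to 1.06) in scaled reads.

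Gata4 was the factor with the most mixed transcripts, with 5 of its 6 annotated transcripts at 5% or more of its TPM in an animal and table. The commonest was Gata4-202 in both animals and both tables, at 46.7% and 50.01% in the first transcript table and 36.3% and 32.6% in the second. Gata4-201 uses a splice acceptor 3 bases further upstream at its exon 3 of 7 (63204589 to 63204758, against 63204589 to 63204755 in Gata4-202), and had 11.7% and 14.6%, or 14.3% and 21.7% in the second table. Their coding sequences of 1326 and 1323 bases differ only by these bases, which fall after the first base of a codon and keep the frame. The transcripts also differ in where the first exon begins, at 63245271 in Gata4-201 and 63245248 in Gata4-202. The junctions are shown because they are what separates the coding sequences, with the extra bases in capitals (GENCODE M21, 5′ to 3′, from the end of exon 2 into exon 3).
Gata4-201: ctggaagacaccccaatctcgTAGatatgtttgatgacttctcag
Gata4-202: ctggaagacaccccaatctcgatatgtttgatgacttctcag

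Gata4-203 begins at a first exon of its own (63213365 to 63213607), downstream of the first exon of Gata4-202 (63245151 to 63245248), and has a coding sequence of 708 bases in place of 1323. It held 14.6% and 15.3% of Gata4 TPM in the first table and 21.6% and 25.5% in the second. The other 2 are short annotated fragments from the far 5′ end of the gene, and the tables divided them differently. Gata4-204 had 26.3% and 18.7% in the first table and 0.688% and 0% in the second, whereas Gata4-205 had 0.76% and 0.47% in the first and 27.1% and 20.2% in the second. The tables thus put a similar share of Gata4 TPM on these fragments, but not on the same transcript.

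Gata6, on the plus strand of chromosome 18 (11052064 to 11085635), had 25.9 TPM from 2542 reads and 29.3 TPM from 2712 reads, a ratio of 1.01 (0.958 to 1.07). Both Gata4 and Gata6 were thus within a few percent between the hearts. Among the 6 GATA genes, Gata4 made up 53.5% ± 0.64 and Gata6 35.4% ± 0.26 of the family's TPM (SD, n = 2). Gata2, best known from blood and endothelial cells, had 7.15 and 8.6 TPM, and Gata1, Gata3 and Gata5 each stayed below 0.4 TPM.

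Gata6 was simpler: Gata6-201, with 1767 coding bases, held 76.3% and 81.9% in the first table and 78.1% and 78.8% in the second. Transcripts of Gata6 not annotated as protein coding, all with a retained intron, held 9.11% and 10.1%, the highest such share among the factors in the first table. Gata6-203 was at 10.03% and 2.05% in the first table and at 0 in the second, and Gata6-206 at 4.57% and 5.98% in the first and 10.5% and 8.84% in the second. The retained-intron transcript Gata6-205 had 3.99% and 3.59%, or 5.84% and 5.35% in the second table.

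NKX2-5 is the homeodomain factor of early heart progenitors and of adult cardiac muscle. Nkx2-5, on the minus strand of chromosome 17 (26838664 to 26845009), had 30.2 TPM from 1592 reads in animal 1 and 38.3 TPM from 1816 reads in animal 2. The ratio of scaled reads was 1.08 (0.0234 as the unadjusted exact p, adjusted p = 0.142), so the difference did not pass the threshold. Under other scalings and tables its adjusted exact binomial p ran from 0.00108 with total gene reads to 0.2, and it was 0.0447 with the spike-in reads. No other gene of the NKX2 family stood beside it. Nkx2-5 held 99.8% of the TPM of 7 NKX2 genes in both animals, and the other 6 had at most 2 reads in a library.

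Nkx2-5-201, the transcript of 2 exons, took 98.2% and 96.8% of Nkx2-5 TPM in the first table but 71.9% and 67.2% in the second. The rest fell on Nkx2-5-202, which starts from an upstream first exon (26844859 to 26845009) and is annotated without a complete 3′ end. Its level was 0.55 and 1.22 TPM in the first table and 12.2 and 15.8 TPM in the second. Use of the upstream exon therefore cannot be sized from these tables, although both put Nkx2-5-201 first.

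TBX20 and TBX5 are T-box factors. TBX20 is needed to keep adult cardiomyocytes working, and TBX5 is the Holt-Oram syndrome gene. Tbx20, on the minus strand of chromosome 9 (24718138 to 24774303), had 32.1 TPM from 6657 reads and 36.6 TPM from 6975 reads, a ratio of 0.993 (0.960 to 1.03) in scaled reads. It had the most reads of the 10 factors, but per length its mean was 34.4 TPM beside 34.2 TPM for Nkx2-5 in the gene table, and 31.4 beside 45.8 TPM in the second transcript table. Tbx5, on the plus strand of chromosome 5 (119832668 to 119885219), had 11.2 TPM from 1309 reads in animal 1 and 9.95 TPM from 1045 reads in animal 2. It was the only factor with fewer reads in animal 2. Of the 16 listed T-box genes, Tbx20 held 49.0% ± 0.29 of the TPM, Mga 23.0% ± 1.76 and Tbx5 15.2% ± 2.61 (SD, n = 2). Mga, which carries both a T-box and an E-box binding domain, is broadly expressed.

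Tbx5 fell to a ratio of 0.757 in animal 2 (95% interval 0.697 to 0.822, adjusted exact binomial p = 9.21e-10), a log2 difference of -0.40. Its adjusted exact p ran from 2.3e-10 to 1.38e-06 over the other scalings and tables, and its ratio from 0.757 to 0.7997. Of 7017 genes with at least 1000 reads, 1.8% lay as far from 1. In deposited TPM the ratio was 0.885, against the median log2 shift of all genes given above. The second table had 16.2 TPM in animal 1 and 13.2 TPM in animal 2, so the same animal was lower.

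The 5 atrial markers moved with Tbx5. By the same exact test with no fold minimum all 5 were lower in animal 2, against 4.65% of all genes. Nppa (atrial natriuretic peptide) stood at a ratio of 0.735, and Myl4 and Myl7 (atrial myosin light chains) at 0.739 and 0.729. Sln (sarcolipin, a calcium pump inhibitor) stood at 0.648 and Bmp10 (an atrial growth factor) at 0.842. The levels of the 5 markers summed to 1175 TPM in the first heart and to 1009 TPM in the second, with no marker at 0. The summed reads of the ventricular markers Myl2 and Myl3 had a ratio of 0.988, and those of the 5 cardiomyocyte markers 0.968. The atrial marker Nppa is also among the textbook targets of the factors. The part of atrial tissue in the Tbx5 difference was not tested, and in a bulk sample fewer cells of a type and less RNA per cell cannot be told apart. Irx4 and Hey2, the ventricular factors of the list, had ratios of 1.02 (0.928 to 1.12) and 1.09 (0.841 to 1.40).

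The commonest Tbx5 transcript was the same in both animals and both tables. Tbx5-201, with 9 exons, held 75.2% and 75.9% of its TPM, and the shorter Tbx5-202 held 21.3% and 19.0%. In the second table these were 64.8% and 62.7%, and 31.6% and 29.5%. Tbx5-203 was low but had the larger share in animal 2, with 3.52% and 5.16%, or 3.67% and 7.88% in the second table, and these shares were not tested.

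Tbx20 was made as 2 transcripts with different ends. Tbx20-201, with 8 exons and 1335 coding bases, held 55.0% and 56.1% of TPM in the first table and 69.8% and 68.0% in the second. Tbx20-202, with 7 exons, leaves the shared exons for a last exon that Tbx20-201 lacks (24740248 to 24740703) and has 891 coding bases. It held 31.0% and 35.3%, or 23.0% and 28.8%. Tbx20-202 was thus the clear second transcript in both tables, with levels of 9.96 and 12.9 TPM. The fragment Tbx20-203, whose last exon lies within that of Tbx20-202, held 10.7% and 6.83% in the first table and 0 in the second. The point where the 2 coding sequences part is shown because the shorter one ends there: capitals mark the bases after the shared exons, and those of Tbx20-202 run to the stop codon.
Tbx20-201: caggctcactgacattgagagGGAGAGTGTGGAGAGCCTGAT
Tbx20-202: caggctcactgacattgagagGGAATGA

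**Figure D3:**
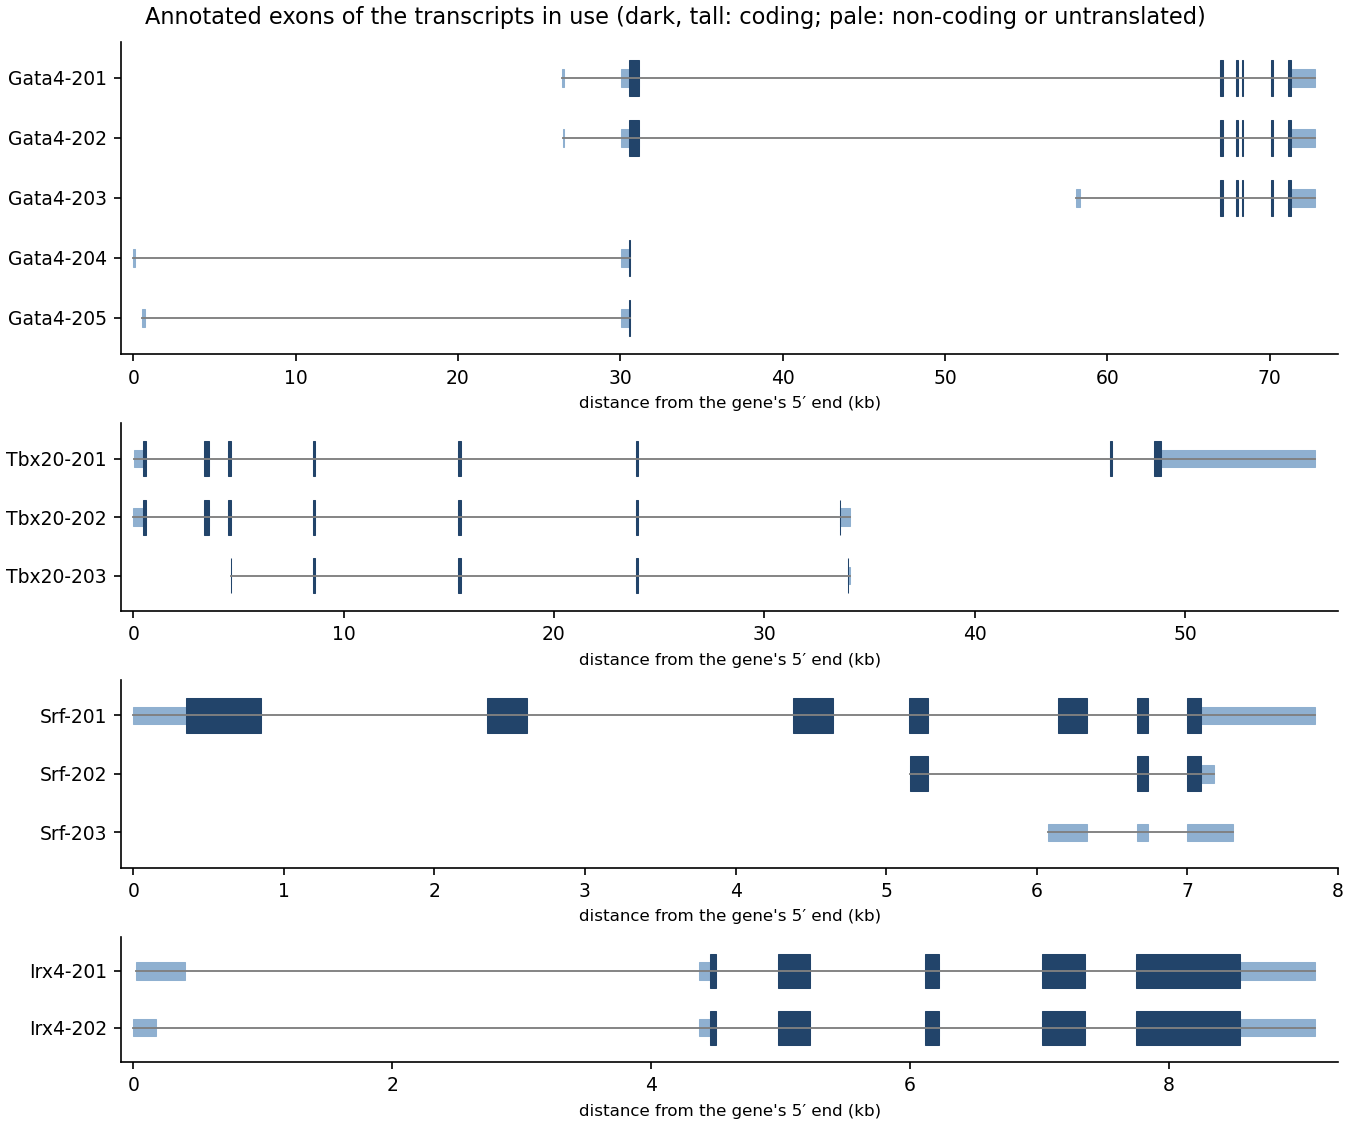
Annotated exons of the transcripts in use of Gata4, Tbx20, Srf and Irx4, drawn to scale against the distance in kb from the gene's 5′ end; tall dark boxes are coding and low pale boxes are untranslated or non-coding. Gata4-203 starts far downstream of Gata4-202, Tbx20-202 ends before the last exons of Tbx20-201, Srf-202 lacks exon 5 of Srf-201, and the Irx4 transcripts differ in the length of the first exon.

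HAND1 and HAND2 are paired basic helix-loop-helix factors known from the left and the right ventricle of the embryo. Hand2, on the plus strand of chromosome 8 (57320983 to 57324633), had 24.1 TPM from 2012 reads in animal 1 and 27.3 TPM from 2050 reads in animal 2, a ratio of 0.966 (0.908 to 1.03) in scaled reads. Hand1, on chromosome 11 (57828705 to 57832818), had 0 reads in both animals and both tables. A count of 0 allows up to 3 reads, or 0.0644 TPM in animal 1 and 0.0716 TPM in animal 2. The deposited upper credibility bounds of Hand1, whose level is not stated, were wider, at 0.347 and 0.383 TPM. Against the limit of 3 reads, which covers counting error only, Hand2 was at least 374-fold higher than Hand1 per length in animal 1 and at least 381-fold higher in animal 2. Hand2 has 1 annotated transcript, so its level cannot shift between isoforms.

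Hand2os1, a long non-coding RNA on the opposite strand (57281117 to 57324233), overlaps the Hand2 gene by 3251 bases. It had 61.3 TPM from 1752 reads and 63.4 TPM from 1527 reads, which put it above Hand2 per length. Its scaled reads were lower in animal 2, with a log2 ratio of -0.28 (adjusted exact binomial p = 1.78e-06), while that of Hand2 was -0.05. The exons of 3 of its 37 transcripts share 461 bases with Hand2 exons, or 19.6% of the exonic bases of Hand2. The sources at hand do not say if reads were counted by strand. The deposited spread of read assignment between genes was 0 reads for Hand2 and for Hand2os1 in both animals. The counts thus carry no estimated sharing of reads between these genes. Which of them the reads from the shared bases came from was not tested. Beside Gata6, the opposite-strand transcript 1010001N08Rik had 13.8 and 13.9 TPM, and its exons share 93 bases with those of Gata6. Gm43050, which starts 748 bases from the start of Tbx5, had 4.18 and 4.26 TPM, and Gm29824 near Tbx20 had 3 and 2 reads. Gm26904 and Mir6976, which overlap Srf, had 0 reads in the gene table.

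SRF is a MADS-box factor that drives contractile and immediate early genes with cofactors of the myocardin family. Srf, on the minus strand of chromosome 17 (46548329 to 46556175), had 34.5 TPM from 2870 reads in animal 1 and 46.8 TPM from 3320 reads in animal 2. It rose to a ratio of 1.10 (1.04 to 1.15) in scaled reads, with an adjusted exact binomial p of 0.00451 and a range of 1.67e-07 to 0.00565 over the other scalings and tables. Of genes with at least 1000 reads, 20.5% lay as far from 1 as Srf. The larger difference in TPM, 0.44 on the log2 scale, holds the shift of all genes and a shorter effective length in animal 2, at 0.9501 of that in animal 1. Of the cell type lists, mural markers had a ratio of 1.23 in summed reads, fibroblast 1.16, endothelial 1.13 and macrophage 1.18. With no fold minimum, 6.5% of all genes were higher in animal 2 by the exact test. At this threshold 4 of 4 mural, 4 of 4 endothelial, 3 of 4 fibroblast and 2 of 3 macrophage markers were higher. Their sums rose from 163 to 229.8 TPM for mural, from 169 to 222 TPM for fibroblast, from 118 to 158 TPM for endothelial and from 32.9 to 43.9 TPM for macrophage markers, with none at 0. Epicardial markers had a ratio of 0.908 and sinus node markers 1.06, with 0 of 4 and 0 of 3 tested past the threshold. The mural marker Acta2 is also among the textbook targets of the factors given further on. The part of these cell types in the Srf difference was not tested.

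Srf-201, with 7 exons and 1512 coding bases, held 87.2% and 82.4% of Srf TPM, or 94.2% and 87.6% in the second table. The fragment Srf-202 leaves out exon 5 (46549845 to 46550036), an exon of 192 bases or 64 codons, and had 2.86 TPM in animal 1 and 7.06 TPM in animal 2. The deposited credibility bounds of these values, whose level is not stated, were 1.33 to 4.77 and 4.47 to 9.70 TPM, so they overlapped. The second table listed Srf-202 at 0 in both animals. The retained-intron transcript Srf-203 had 2.10% and 1.04% in the first table and 4.25% and 10.6% in the second. The junctions are shown because the tables disagree on the skipped form: capitals mark bases of exon 5, and the third line joins exon 4 to exon 6.
Srf-201 exon 4 to 5: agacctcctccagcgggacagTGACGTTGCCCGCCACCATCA
Srf-201 exon 5 to 6: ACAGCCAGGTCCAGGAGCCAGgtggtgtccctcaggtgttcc
Srf-202 exon 4 to 6: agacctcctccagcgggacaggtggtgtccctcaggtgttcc

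The promoter table from RefSeq (GRCm38.p6, 250 bases before to 50 after each start) held 6 of the 10 genes: Hand2, Tbx20, Hey2, Irx4, Nkx2-5 and Srf. Among its 32851 promoters, 1.63% held a CArG box on either strand and 0.0183% held 2 or more. Srf alone of the 6 held any, and it held 2, which begin at -82 and -62 from its RefSeq start. Their stretch is shown here because SRF itself binds this motif (chr17:46556195-46556264, minus strand, CArG boxes in capitals, 20 to 89 bases upstream of the Srf start in GENCODE M21).
Srf promoter: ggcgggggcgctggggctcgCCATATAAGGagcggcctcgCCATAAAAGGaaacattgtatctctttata

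A GATA motif (the core GATA with A or T before it and A or G after it, both strands) was in 29.8% of all promoters and, of the 6, in that of Hand2, with 2 matches. The NKX2-5 motif AAGTG, on either strand, was in 46.4% of promoters and in those of Hand2 and Srf. The T-box motif AGGTGT was in 13.7% and in none of the 6. No match overlapped a match to another motif. These are matches to letters in short windows and show neither binding nor its absence.

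IRX4 is an Iroquois homeodomain factor of ventricular muscle, and HEY2 is a repressor downstream of Notch. Irx4, on the plus strand of chromosome 13 (73260479 to 73269608), had 9.91 TPM from 865 reads and 11.7 TPM from 930 reads. It was the leading gene of its family, with 40.9% ± 0.16 of the TPM of 6 IRX genes (SD, n = 2). Irx3, which acts in the conduction system, followed at 7.89 and 9.70 TPM. Hey2, on the minus strand of chromosome 10 (30832359 to 30842801), had 1.29 TPM from 117 reads and 1.65 TPM from 134 reads. It was the lowest of the 3 HEY genes, at 13.1% ± 0.03 of their TPM, below Heyl with 5.33 and 7.27 TPM and Hey1 with 3.25 and 3.74 TPM. Hey2-201 held 97.0% and 96.5% of Hey2 TPM. With 251 reads in all, the interval of the Hey2 ratio was the widest of the 9 tested factors.

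Irx4 was the factor whose commonest transcript changed between the animals. Irx4-202 led in animal 1 with 66.6% and Irx4-201 in animal 2 with 50.6%, and in the second table the same pair led with 62.8% and 57.3%. Irx4-201 had 3.31 TPM in animal 1 (credibility bounds 2.12 to 4.40) and 5.90 TPM in animal 2 (4.41 to 7.43), and Irx4-202 had 6.60 and 5.77 TPM. With the median TPM shift of all genes removed, the lower bound of Irx4-201 in animal 2 was 3.78 TPM, so its bounds overlapped, as did those of Irx4-202. Both transcripts have the same 1545 coding bases. They differ in the untranslated first exon, which runs from 73260497 to 73260876 in Irx4-201 and from 73260479 to 73260653 in Irx4-202. No test was made of these shares.

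**Figure D4:**
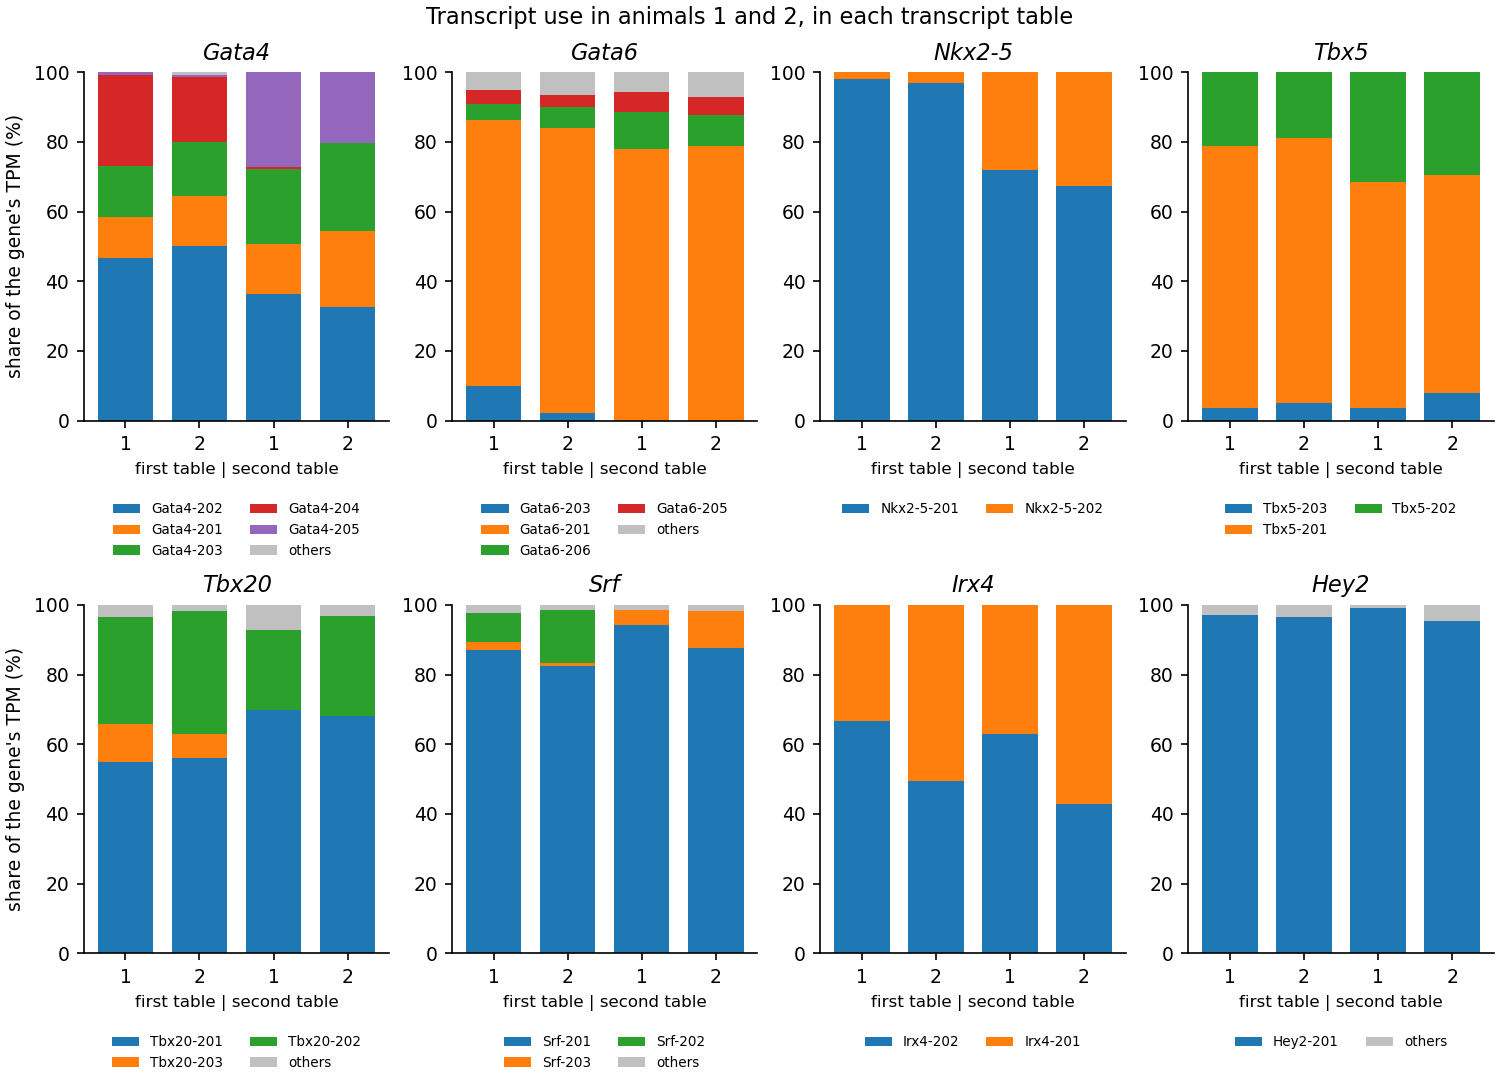
Share of each gene's TPM (%) on its annotated transcripts in animals 1 and 2, in the first and second transcript tables; grey holds transcripts below 5% in all 4 columns. Irx4 shifts between the animals in both tables, while Gata4 and Nkx2-5 differ more between the tables than between the animals.

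Over the 9 factors with reads, protein-coding transcripts held at least 89.9% of TPM in each animal in the first table and at least 87.6% in the second. The median share of the commonest transcript was 79.1%. For 8 of the 9 factors the same transcript led in both animals and both tables, Irx4 being the exception. The estimated spread of read assignment between genes, as deposited, was 0 reads for all of them.

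Of 31 related genes of these families (paralogs), 11 had at least 1 TPM in both animals, and 6 had no read. The most abundant were Mga, Irx3, Gata2, Heyl, Tbx3 and Hey1. Of 17 tested, 2 passed with no fold minimum, against 11.1% of all genes. Heyl, a Notch-responsive factor of vessel walls, rose by 0.35 on the log2 scale. Tbx15, with 20 and 4 reads, was lower by more than 2-fold (a log2 ratio of -2.26). The median log2 ratio of the 17 was 0.032.

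**Figure D5:**
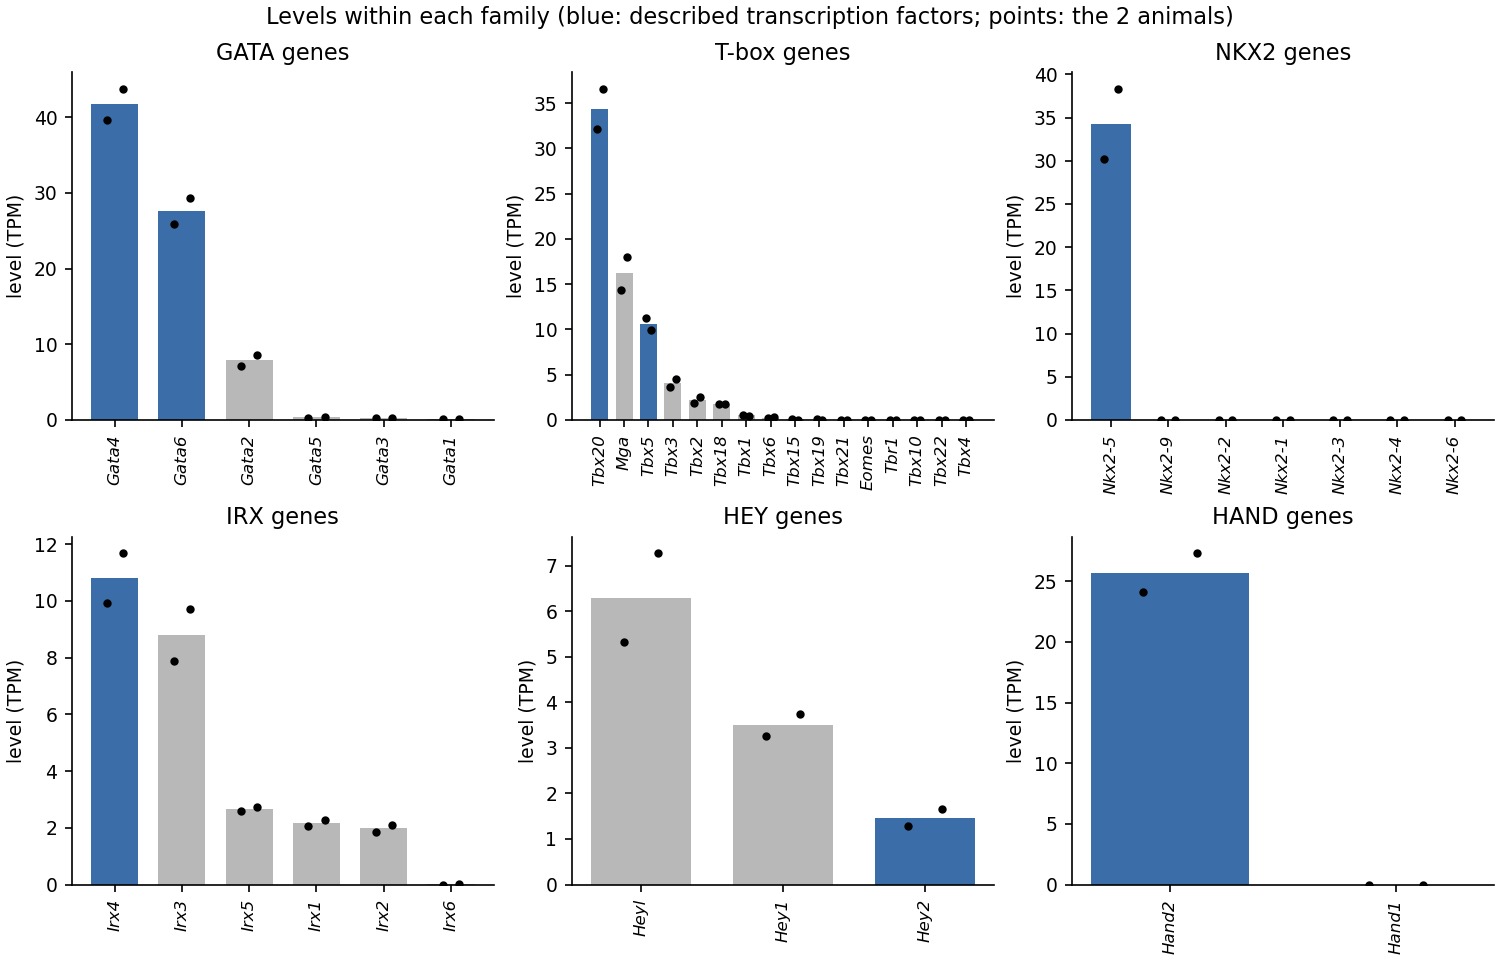
Level in TPM (linear axes starting at 0, a scale per panel) of every listed gene of 6 transcription factor families; bars are means of the 2 animals, points are the animals and blue bars are the factors described here. Blue bars lead the GATA, T-box, NKX2, IRX and HAND families, while Hey2 is the lowest of the HEY genes.

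All 26 partners and cofactors of these factors had at least 1 TPM in both animals. Hopx, a homeodomain protein without DNA binding that restrains SRF, led with 137 and 161.5 TPM, followed by the TEA-domain factor Tead1 with 67.1 and 74.4 TPM. Tcf4 (an E protein), Chd4 (a chromatin remodeller), Myocd and Elk4 came next. Myocd, the myocardin coactivator of SRF, had 33.0 and 36.3 TPM, close to Srf in animal 1. By the exact test with no fold minimum 5 of 26 passed, against 11.1% of all genes. Tcf4, Elk3 and Prdm16 were higher and Chd4 and Meis1 lower in animal 2, and no gene of the list passed at 2-fold. Elk3, Prdm16 and Meis1 are named after their values were seen. The median log2 ratio of the list was 0.014.

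All 13 listed Notch pathway genes, Hes1 among them, had at least 1 TPM. With no fold minimum, where 6.5% of all genes were higher and 4.65% lower, 4 of the 13 rose and none fell. They were the receptors Notch4 with 10.9 and 14.2 TPM, Notch1 with 10.2 and 14.3 TPM and Notch3 with 8.53 and 13.4 TPM, and the ligand Jag1, named after its values were seen, with 2.64 and 3.65 TPM. Their log2 ratios in scaled reads were 0.38, 0.26, 0.36 and 0.28, and the list's median was 0.16 against -0.0024 for all genes. The mural and endothelial markers given beside Srf were higher in the same animal, and their part in the Notch values was not tested. Hey2 itself did not pass, with an adjusted exact p of 0.842 and a log2 ratio of 0.12. Its ratio of 1.09 had an interval of 0.841 to 1.40, from 117 and 134 reads. This interval also held the ratios of Notch4, Notch1, Notch3 and Jag1, at 1.301, 1.195, 1.288 and 1.215. With the counts of the second transcript table the log2 ratio of Hey2 was 0.339 (adjusted exact binomial p = 0.258). At this depth the test cannot tell whether Hey2 rose with these genes or stayed level.

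All 30 textbook targets of the factors were present at 1 TPM or more. The most abundant were the contractile and calcium genes Myh6, Myl2, Atp2a2, Actc1, Tnni3 and Tnnt2, at 3180 to 8371 TPM. With no fold minimum 17 of 30 passed, 8 higher and 9 lower, against 11.1% of all genes, 6.5% higher and 4.65% lower. The test passes small ratios where reads are many, such as 0.949 for Myh6 and 1.07 for Actc1. The median log2 ratio of the 30 targets was -0.0079. Nppb, the gene of brain natriuretic peptide and a known target of GATA4, was the only one past 2-fold: it had 1129 reads in animal 1 and 2625 in animal 2, or 44.6 and 115 TPM, a log2 ratio of 1.14. None of the 9 factors tested had a ratio as large.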

How the data were processed

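The authors deposited, per animal, a gene table and a first transcript table in the layout of RSEM, with expected counts, TPM and percent of the gene's TPM per transcript, and a second transcript table in the layout of kallisto, with estimated counts and TPM, per the file headers. The genome build is mm10 with GENCODE M21, per the labels and the deposited readme. Tool versions and other steps are not stated there. Genes were matched by identifier, and 81881 entries of the gene table include 26248 numbered entries and 96 spike-ins left out of the tests. Expected counts were rounded and scaled by TMM (edgeR 4.0.16 in R 4.3.3; DESeq2 1.42.0 gave alternative size factors). The exact p was 2 times the smaller binomial tail, log2 ratios used a prior count of 0.5, and intervals were Clopper-Pearson at 95%. A p of the minimum-likelihood kind was run first and called 222 genes; the doubled tail was then taken to match earlier processing of these data, and called 210. The test was checked on data simulated with counting error alone, so the check does not cover variation between animals. Named genes are all 10 factors, the 6 most abundant of each list, list genes past 2-fold, annotated genes overlapping a factor or starting within 5 kb of its start, and transcripts at 5% or more. The factors and lists were chosen with earlier results of these data known. A count of 3 reads, the upper limit for 0, is 0.0717 CPM in animal 1 and 0.0718 CPM in animal 2.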

Additional observations from a re-analysis of the deposited data

How the results depend on the processing

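The summed level of the factors was 227 TPM, 259.7 TPM in the second transcript table and 544 TPM over nuclear protein-coding genes alone, and 209 to 245 TPM with either animal left out. Genes past 2-fold numbered 210, and 170 to 244 under other scalings, filters, tables and the minimum-likelihood p, which was added after seeing the data (222); with no fold minimum there were 1798. Factors called stayed at 0 in these settings and were 2 with no fold minimum. Tbx20 turned to a ratio of 1.05 with total gene reads, where it passed the adjusted threshold. There Gata4 and Nkx2-5 passed too, among 3313 of 16133 genes past the threshold with no fold minimum. That scaling multiplies the ratio of every gene by the same factor, and it moved the median log2 ratio of all genes from -0.0024 to 0.077. In deposited TPM, an alternative added after seeing the data, the ratios of 8 of 9 factors moved out of their intervals. The median share of the commonest transcript was 79.1%, 69.9% in the second table and 76.3% to 81.9% with an animal left out. The median protein-coding share was 100% and 99.99% to 100% with an animal left out. Annotation alone held this median near 100%, so its stability shows nothing about the processing. Every annotated transcript of Gata4, Nkx2-5, Tbx5, Hand2 and Irx4 is of the protein-coding type. The second table moved the level of 6 of 10 factors and the commonest transcript's share of 6 of 9 by more than the SD between animals. No paired analysis was possible because there is 1 group. Depth limits Hand1, with 0 reads, and Hey2, with 117 and 134.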
